A study of Mus musculus with 8 samples.

Results

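The genes of cholesterol synthesis, sterol sensing and cholesterol export were examined in RNA described as astrocytic from the spinal cord of C57Bl/6J mice. They were a list of 34 genes chosen by name, of which 33 had an array probe under their name, out of 37074 gene names on the array. The 1 gene without such a probe was Acat2, which encodes a cytosolic acetyl-CoA acetyltransferase. Each gene was read from its probe with the highest mean level, and these 33 probes were well above background on all 8 arrays. By role the 33 genes were 17 enzymes of synthesis, 5 genes of sterol sensing, 2 liver X receptors, 4 genes of transport and storage inside the cell, 3 of export and carriage, and 2 enzymes that make oxysterols.

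The 8 single-colour arrays covered wild-type (WT) mice, titled FL or F/F, and connexin 47 (Cx47) deficient mice, titled icKO. Oligodendrocytes use this protein in their gap junctions. Each genotype was profiled naive, with experimental autoimmune encephalomyelitis (EAE, a mouse model of multiple sclerosis), with EAE and the anti-inflammatory compound iguratimod, and in the chronic phase of EAE, titled p50. Each of these groups had 1 array. The promoter that drives the deletion, the ages of the mice, the way the cells were isolated and whether animals were pooled were not stated in the sources. No label says that the arrays carried separate animals. The p-values measure only the spread of these arrays around a fit of state plus genotype. That spread may be technical, and it also holds any genotype difference that varies between states.

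Brain and spinal cord make their own cholesterol, because lipoproteins do not cross the blood-brain barrier in useful amounts. Oligodendrocytes need it for myelin and astrocytes supply it to neurons. The synthesis enzymes are switched on together by the transcription factor SREBP2, the product of Srebf2, which SCAP escorts to the Golgi when sterols are low and INSIG proteins hold back when sterols are high. Cells with too much sterol make oxysterols, which activate the liver X receptors and through them the transporters ABCA1 and ABCG1, which load cholesterol onto apolipoprotein E.

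The promoters of the synthesis enzymes are the known meeting point of this regulation: SREBP2 binds a sterol regulatory element and works beside the factors NF-Y, which reads a CCAAT box, and Sp1, which reads a GC box. A RefSeq promoter (250 bases before to 50 bases after the start, GRCm38.p6) was listed for 14 of the 17 measured enzymes, and the first promoter listed for a gene was read. The letters CCAAT, on either strand, were present in 13 of these 14 promoters and in 37.9% of the promoters of all 27025 genes. The letters GGGCGG were present in 13 of 14 and in 35.9% of all. The sterol element TCACNCCAC was present in 1 of 14, that of Hmgcs1, and in 1.22% of all. Both strands were searched for all 3, and ATTGG and GGGCGG can share letters where they adjoin. The 150 bases before the start are shown for 4 enzymes along the pathway whose levels are described below, with the sterol element and CCAAT boxes (ATTGG on the strand shown where the box lies on the other strand) in capitals. They are Hmgcs1, the enzyme that makes HMG-CoA (chr13:119690201-119690350, plus strand), Mvd, the last step from mevalonate to isoprenoids (chr8:122443423-122443572, minus strand), Idi1, the isomerase of isopentenyl diphosphate (chr13:8885456-8885605, plus strand), and Cyp51, the lanosterol demethylase (chr5:4104698-4104847, minus strand).
Hmgcs1: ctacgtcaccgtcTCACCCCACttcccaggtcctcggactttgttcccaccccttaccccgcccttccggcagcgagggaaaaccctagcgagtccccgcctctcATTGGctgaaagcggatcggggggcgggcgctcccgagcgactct
Mvd: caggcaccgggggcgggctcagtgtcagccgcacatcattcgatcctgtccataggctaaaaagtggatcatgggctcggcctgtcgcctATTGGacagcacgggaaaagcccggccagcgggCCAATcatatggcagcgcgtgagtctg
Idi1: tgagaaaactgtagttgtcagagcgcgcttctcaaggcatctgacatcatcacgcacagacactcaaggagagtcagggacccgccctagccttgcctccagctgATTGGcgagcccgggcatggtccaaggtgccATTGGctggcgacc
Cyp51: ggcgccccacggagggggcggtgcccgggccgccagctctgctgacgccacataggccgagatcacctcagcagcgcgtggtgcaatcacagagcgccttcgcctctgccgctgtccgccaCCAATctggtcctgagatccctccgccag
A match is a description of these letters and not evidence of binding in these cells. Only these exact letters were searched, so a missing match does not show that a promoter lacks the element.

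The share of spots well above background ranged from 59.7% to 72.0%. Slide 2 held the 2 chronic arrays and slide 1 the other 6, so that slide and chronic phase cannot be told apart. Levels are log2 signals minus the 75th percentile of the array. The astrocyte markers Gfap and Aldh1l1 were well above background on all 8 arrays, and so were the myelin gene Mbp, the neuronal genes Rbfox3 and Snap25 and the myeloid genes Itgam and Lyz2. Transcripts of other cell types were thus present beside those of astrocytes, and fewer cells of a type cannot be told apart from less RNA per cell. Differences between disease states or genotypes were fitted over all 8 arrays with limma, as state plus genotype, for 25903 genes. The threshold for a call was 0.05 on the p adjusted by Benjamini-Hochberg over these genes, and a difference ± its SE is on the log2 scale.

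**Figure D1:**
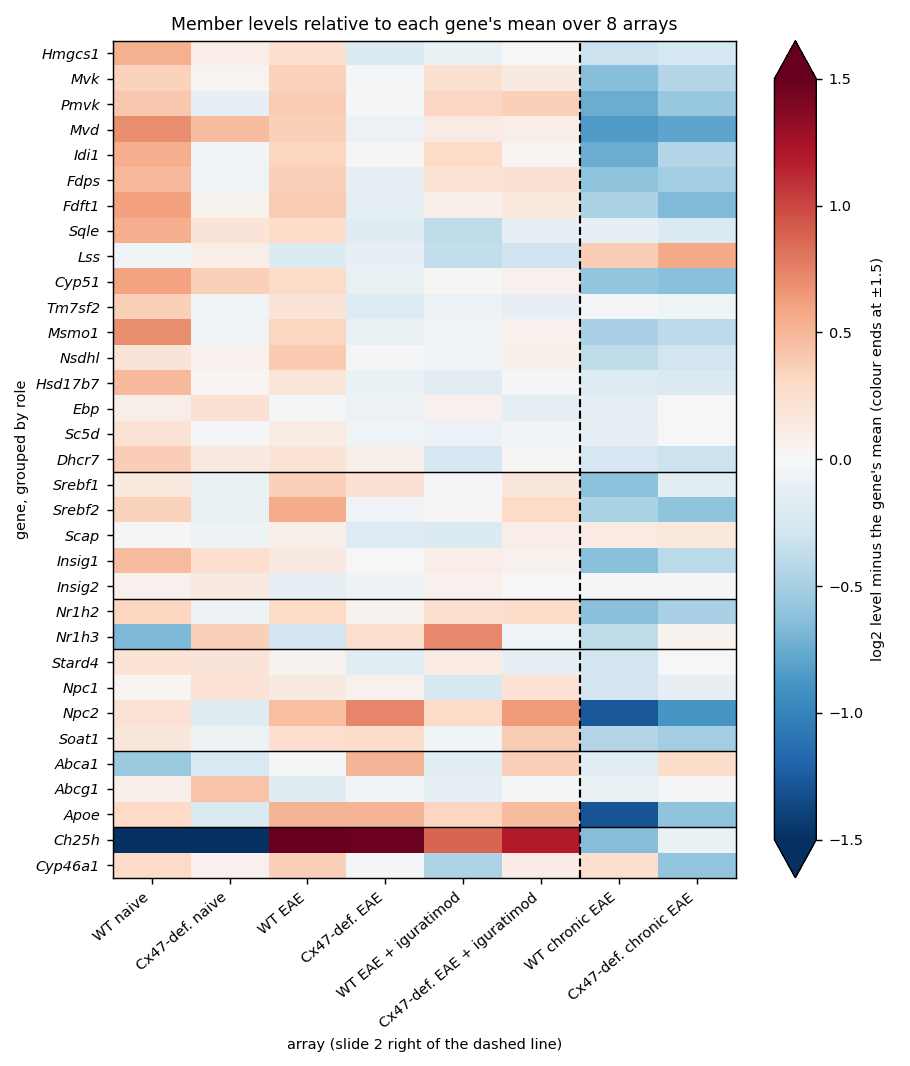
Level of each of the 33 measured genes (rows, grouped by role between black lines) on each of the 8 arrays (columns, 1 array per group), shown as log2 level minus that gene's mean over the arrays, with colours ending at 1.5 in either direction. For 14 of the 17 synthesis enzymes, the top block, the WT naive array holds the highest level, and 13 of the 17 are lowest on a chronic array. The mean of the top quartile of genes by level is likewise highest on the WT naive array and lowest on the 2 chronic arrays. Ch25h has its lowest levels on the naive arrays and its highest on the EAE arrays.

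Whether EAE altered these genes was asked first. The 1 member called in EAE minus naive was Ch25h, cholesterol 25-hydroxylase, an interferon-induced enzyme that turns cholesterol into the oxysterol 25-hydroxycholesterol. Its level was -4.29 on the WT and -4.95 on the Cx47-deficient naive array. It was -0.83 and -0.96 on the EAE arrays, -1.55 and -1.24 with iguratimod, and -3.07 and -2.53 in the chronic phase. Both naive arrays lay below all 6 others and the chronic arrays lay between naive and EAE. Ch25h rose by 3.72 ± 0.32, which is 13.2-fold (adjusted p 0.0433 by limma), with 0.251% of all genes called. The rise was 3.46 in WT and 3.98 in Cx47-deficient mice, and Ch25h was the 1 member at 2-fold or more in each genotype, beside 5.27% of all genes in WT and 7.19% in Cx47-deficient mice. After normexp background correction the rise was 2.17 ± 0.19, and after quantile normalization it was 3.70 ± 0.42 with an adjusted p of 0.0675. Without any 1 of the 8 arrays it was between 3.27 and 4.17 and was not called.

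Markers of blood-derived and vascular cells moved over the same arrays. The summed linear level of the 7 monocyte and macrophage markers was 42.8 and 43.8 on the WT and Cx47-deficient naive arrays. On the EAE arrays it was 75 and 119, with 6 of 7 members higher in the fit. Itgam, which makes up most of the naive sums, was lower, at -0.22 ± 0.16. The summed level of the 5 endothelial markers was 3.99 and 1.49 naive, and 20.3 and 21.2 in EAE, with 5 of 5 higher. That of the 4 neutrophil markers was 1.07 and 0.88 naive, and 7.40 and 11.5 in EAE, with 4 of 4 higher and S100a9 called. Their part in the Ch25h result was not tested.

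The export genes did not pass the test in EAE. Abca1 encodes the transporter that hands cholesterol to lipid-poor apolipoproteins. Its level was -0.72 on the WT and -0.39 on the Cx47-deficient naive array, -0.18 and 0.35 in EAE, -0.33 and 0.20 with iguratimod, and -0.33 and 0.11 in the chronic phase. In each genotype the naive array was the lowest of the 4 and the EAE array the highest. The fitted difference of Abca1 was 0.64 ± 0.16 in EAE minus naive, with an adjusted p of 0.297. Abcg1, the transporter that passes cholesterol to formed lipoprotein particles, had levels of 2.22 and 2.58 naive and 1.97 and 2.11 in EAE, so that its 2 EAE arrays lay below its 2 naive arrays. Npc2, the small protein that hands lysosomal cholesterol to the membrane protein NPC1, stood at 2.55 and 2.15 naive and 2.78 and 3.06 in EAE. Its difference was 0.57 ± 0.25. On the chosen probes no member besides Ch25h, Abca1 and Npc2 reached 0.5 in this fit. Other probes of some members did, in either direction. Among them was the other probe of Apoe at 0.59, where its chosen probe had 0.47.

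**Figure D2:**
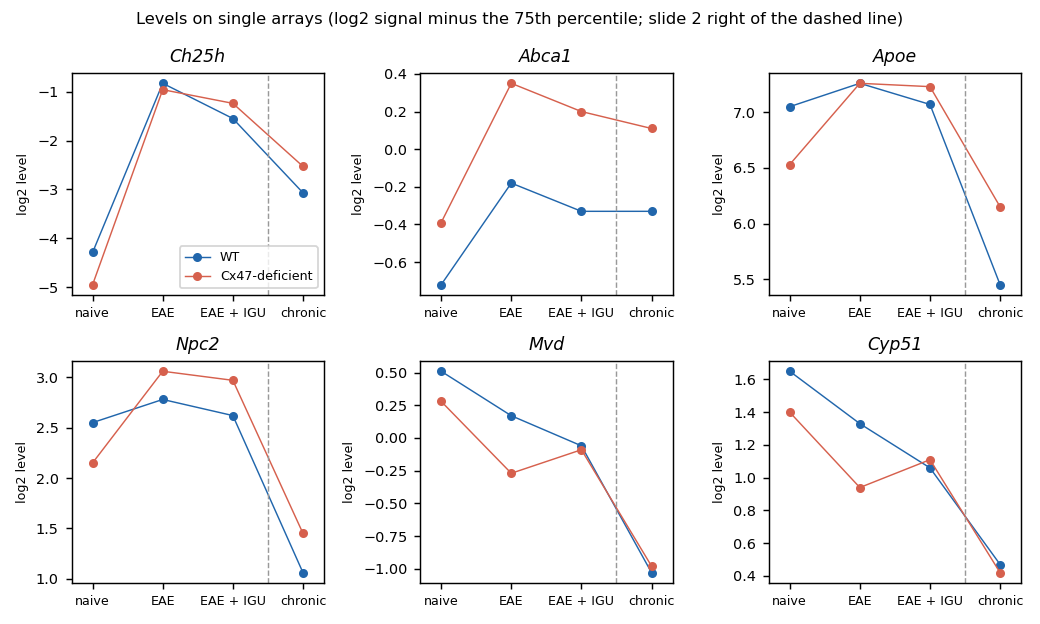
Levels of 6 members on the 8 single arrays, as log2 signal minus the 75th percentile of the array (y axis, a scale of its own for each gene), over naive, EAE, EAE with iguratimod (IGU) and chronic EAE, for WT in blue and Cx47-deficient in red, with 1 array per point. Ch25h is lowest on both naive arrays, Abca1 is higher in Cx47-deficient mice in all 4 states, and Apoe, Npc2, Mvd and Cyp51 are lowest on the 2 chronic arrays.

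The synthesis enzymes as a group were slightly lower in EAE, and none of them was called. In the fit 15 of 17 were lower and 2 higher than in naive mice, with a median of -0.20 and a range from -0.44 to 0.05, against a median of -0.06 over all genes and -0.03 over the top quartile of genes by mean level. The 8 myelin genes were lower in 8 of 8, with a median of -0.66 and 0 called, and their part in the enzyme difference was not tested. Of the 17 enzymes 10 belonged to that top quartile and 7 to the third. In both genotypes 14 enzymes were lower in EAE than naive. Mvd was 0.51 and 0.28 on the naive arrays and 0.17 and -0.27 on the EAE arrays. Cyp51 was 1.65 and 1.40 naive, and 1.33 and 0.94 in EAE, so that in both genes the EAE arrays lay below the naive ones. Without the WT naive array the median was -0.02, and without the Cx47-deficient naive array it was -0.32.

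The sensing genes and the receptors moved little in EAE. Srebf1, which encodes the SREBP that favours fatty acid genes, was 2.62 and 2.37 naive and 2.83 and 2.70 in EAE. Srebf2 was 1.94 and 1.48 naive, and 2.15 and 1.54 in EAE, a range in which the genotypes differed more than the states. Insig1, itself a target of SREBP, was -1.09 and -1.31 naive and -1.42 and -1.55 in EAE, so that it went with the enzymes. Its EAE arrays lay below its naive arrays.

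Related lists gave the surroundings of the pathway. In EAE minus naive 0 of 12 tested genes of fatty acid synthesis, 0 of 15 of lipoprotein uptake and lipid carriage, and 0 of 11 of lysosomal and ER sterol handling and the bile acid route were called, in either direction. The largest differences in the first 2 lists were Fads2, a fatty acid desaturase, at 0.44 ± 0.24, and Apoc1, an apolipoprotein, at 1.15 ± 0.55. In the third list Soat2, a cholesterol esterifying enzyme, ranked first but was not well above background on either naive array and exceeded background clearly on 1 of the 2 EAE arrays. That was the Cx47-deficient EAE array, at -4.54, while the WT EAE array stood at -5.40. No size is given for the Soat2 difference, because the other values lay near background. Next to them stood Elovl6, a fatty acid elongase, at -0.29 ± 0.16, Apod, the lipocalin apolipoprotein D, at 0.70 ± 0.36, and Cyp27a1, the sterol 27-hydroxylase, at -0.52 ± 0.28. The third of each list were Acacb, an acetyl-CoA carboxylase, at 0.25 ± 0.37, Lpl, lipoprotein lipase, at -0.59 ± 0.49, and Lima1, an actin-binding protein, at 0.44 ± 0.17.

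The second question was whether Cx47 deficiency altered the pathway. None of the 33 members was called in the fit over both genotypes, in which 0 of 25903 genes were called (0%) and 1147 had an unadjusted p under 0.05, as did 1 member, Abca1. Its difference was 0.46 ± 0.11 with an adjusted p of 0.83, and it was higher on the Cx47-deficient array in all 4 states, by 0.33 naive, 0.53 in EAE, 0.53 with iguratimod and 0.44 in the chronic phase. This order held within the slide of the 6 other arrays and within the chronic slide. The summed linear level of the 7 monocyte and macrophage markers was 43.8 against 42.8 naive and 119 against 75 in EAE. It was 93.5 against 60.2 with iguratimod and 62.5 against 64.3 in the chronic phase. Of these 7 markers Itgam makes up most of the sums on the naive and chronic arrays. Its log2 level was 5.32 against 5.23 naive and 5.73 against 5.80 in the chronic phase. In the genotype fit 5 of 7 of these markers were higher, with a median of 0.45, as were 4 of 5 microglia markers, with a median of 0.23, and 3 of 4 T cell markers, with a median of 0.50. Their part in the Abca1 difference was not tested.

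The synthesis enzymes were lower on the Cx47-deficient array in the naive and EAE states and not in the other 2. In the naive pair 15 of 17 were lower, with a median of -0.36. In the EAE pair 16 of 17 were lower, with a median of -0.39. With iguratimod 5 of 17 were lower and the median was 0.05, and in the chronic phase 6 of 17 were lower and the median was 0.09. Of the top quartile of genes by level 73.2% were lower in the naive pair and 77.9% in the EAE pair. With iguratimod 64.6% of that quartile were lower, and in the chronic phase 32.2%. The difference between states was not tested, since each pair is 1 array against 1.

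In 15 enzymes the Cx47-deficient array was lower in both the naive and the EAE pair. Msmo1, the sterol C4-methyl oxidase, was 4.42 in WT and 3.67 in Cx47-deficient naive mice, and 4.04 and 3.61 in EAE. Fdft1, squalene synthase, was 4.06 and 3.5 naive, and 3.83 and 3.31 in EAE. Hmgcs1 was 5.15 and 4.71 naive, and 4.86 and 4.41 in EAE. In these 3 genes each Cx47-deficient value was lower than the WT value of the same state by 0.43 or more. With iguratimod the same genes stood at 3.68 and 3.78, 3.52 and 3.60, and 4.51 and 4.62, in the same order, so that the WT array was no longer the higher.

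Over both genotypes in all states 16 of 17 enzymes were lower, with a median of -0.16 and a range from -0.30 to 0.12, beside a median of 0.00 over all genes. Part of this pattern was shared by bright probes in general. In the top quartile of genes by level 73.5% were lower in the fit, with a median of -0.08. In the single pairs the median of that quartile was -0.20 naive, -0.16 in EAE, -0.07 with iguratimod and 0.10 in the chronic phase, the same sign as the enzymes except with iguratimod. The summed level of the 8 myelin genes was 313 against 359 naive, 190 against 262 in EAE, 263 against 212 with iguratimod and 142 against 99.6 in the chronic phase, so that it changed its order in the same states as the enzymes. In the genotype fit 4 of the 8 myelin genes were higher and 4 lower, with a median of 0.00, while all 5 neuron genes were lower, with a median of -0.15. The part of signal level and of oligodendrocyte or neuronal RNA in the enzyme differences was not tested.

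At 2-fold or more between 2 arrays, 1 member differed by genotype in naive mice, where 10.7% of all genes did. It was Nr1h3, the liver X receptor alpha, at -0.51 against -1.54, a difference of 1.03. Its order turned with iguratimod, where it was -0.93 in Cx47-deficient and -0.14 in WT mice, and its 8 values showed no common order by state or genotype. No member reached 2-fold between genotypes in EAE, with iguratimod or in the chronic phase, where 7.40%, 4.86% and 2.91% of all genes did. Apoe, the main lipid carrier of the brain, was 6.53 against 7.05 naive, 7.26 against 7.26 in EAE, 7.23 against 7.07 with iguratimod and 6.15 against 5.45 in the chronic phase, which gave no common order of genotypes.

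Iguratimod was compared with untreated EAE. No member was called, and neither was any other gene (0%), with 546 genes and 0 members at an unadjusted p under 0.05. The member with the largest fitted difference was Ch25h at -0.50 ± 0.32, made of -0.72 in WT and -0.28 in Cx47-deficient mice. No member reached 2-fold in this comparison in either genotype, where 4.30% of all genes did in WT and 3.79% in Cx47-deficient mice. Nr1h3 in WT was nearest, at -1.14 without and -0.14 with iguratimod, a ratio of 1.99.

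For the synthesis enzymes the genotypes stood apart under iguratimod. In WT 16 of 17 were lower on the treated array, with a median of -0.27, and in Cx47-deficient mice 14 of 17 were higher, with a median of 0.09. The median of the top quartile of genes was 0.02 in WT and 0.11 in Cx47-deficient mice. The summed level of the 8 myelin genes split in the same way, from 262 to 212 in WT and from 190 to 263 in Cx47-deficient mice, and its part was not tested. The largest difference between the WT arrays was that of Sqle, squalene epoxidase, at 3.12 without and 2.46 with iguratimod, while in Cx47-deficient mice its level was 2.66 and 2.72. No difference between genotypes in the response was tested, because it would rest on 4 single arrays.

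The chronic phase was the state in which most enzymes were lowest. In chronic EAE minus naive 0 of 33 members were called, where 0.857% of all genes were. An unadjusted p under 0.05 by limma was found for 17 members and for 8451 of all 25903 genes. Of the 17 synthesis enzymes 16 were lower, with a median of -0.61 and a range from -1.40 to 0.44, and 15 were lower in both genotypes. In 11 of them both chronic arrays lay below all 6 other arrays, a count not made over all genes. The mean of the top quartile of level was also lowest on these arrays, at 2.90 and 3.01, against 3.10 to 3.26. The fitted median was 0.03 over all genes and -0.26 over that quartile, in which 72.9% were lower. In the lowest quartile of level the median was 0.78, so that on the chronic slide bright probes read lower and dim ones higher. What signal level and slide contribute to the low enzyme levels was not tested.

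The steps of synthesis differed in size. Mvd stood at 0.51 and 0.28 naive and at -1.03 and -0.98 in the chronic phase, a difference of -1.40 ± 0.19 with an adjusted p of 0.0527. Cyp51 stood at 1.65 and 1.40 naive and 0.47 and 0.42 chronic, a difference of -1.08 ± 0.18 with an adjusted p of 0.0639. On the chosen probes these 2 enzymes had the largest differences of the 17, and their chronic arrays lay below the other 6. Of the steps up to squalene, Hmgcs1 had -0.61 ± 0.22, and Mvk, mevalonate kinase, had -0.73 ± 0.20. The other probe of Mvk, well above background on all 8 arrays, had -1.72, larger than the difference of Mvd. Pmvk, phosphomevalonate kinase, had -0.79 ± 0.24 and Idi1 had -0.84 ± 0.25. Fdps, farnesyl diphosphate synthase, had -0.77 ± 0.24 and Fdft1 had -0.90 ± 0.22. Of the steps after squalene, Sqle had -0.55 ± 0.23, Msmo1 had -0.76 ± 0.27, and Dhcr7, the last reductase of this route, had -0.53 ± 0.19. None of them passed the test, with adjusted p between 0.0828 and 0.17.

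By their chosen probes the remaining enzymes of the later steps differed by less than 0.5 from naive. They were Tm7sf2, a sterol C14 reductase, Nsdhl, a sterol dehydrogenase, Hsd17b7, a 3-ketosterol reductase, Ebp, the sterol isomerase, Sc5d, a sterol desaturase, and Lss, lanosterol synthase. Ebp had a range of 0.37 over the 8 arrays and Sc5d of 0.35 on these probes. Other probes of the same genes gave larger differences, of -0.91 for Ebp, -0.60 for Tm7sf2, -0.58 for Sc5d and -0.51 for Hsd17b7, each well above background on all 8 arrays. Lss went against the others, with -0.14 and 0.00 naive and 0.26 and 0.46 chronic. Its other 2 probes did not follow, with fitted differences of -0.59 and -1.01 where the chosen probe had 0.44. Hmgcs1 and Nsdhl also had a second probe of the opposite sign in both chronic comparisons, and Msmo1 had 1 of its 2 others so. Against naive this probe had 1.72 for Nsdhl and 0.96 for Msmo1, each well above background on all 8 arrays. The second probe of Hmgcs1 was well above background on 3 of 8 arrays, so that its difference, and the value of 0.14 for the mean of both probes, rest on signals near background.

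**Figure D3:**
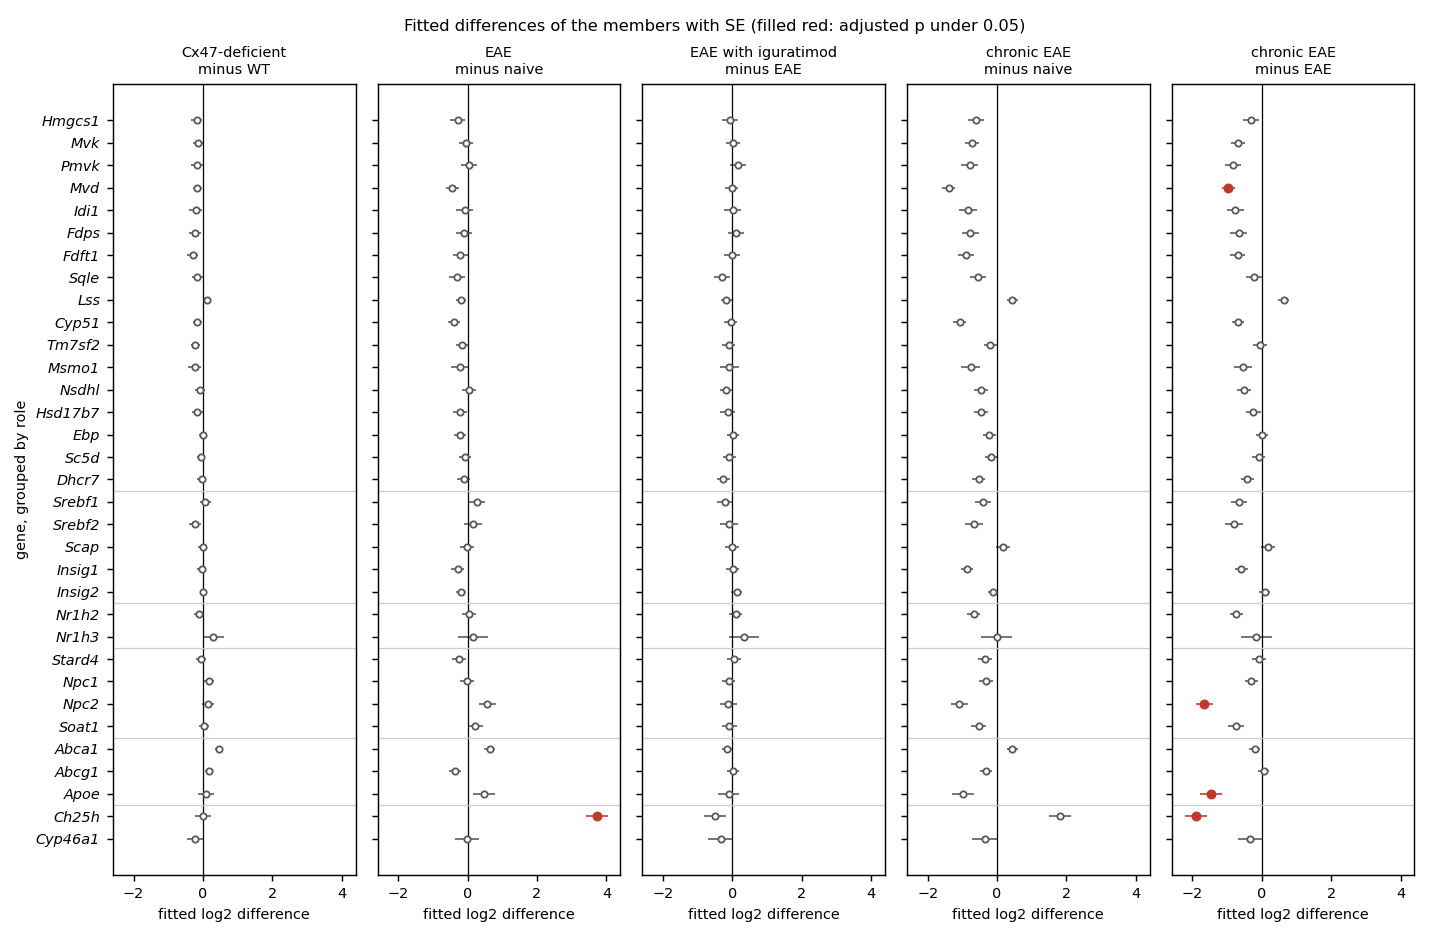
Fitted log2 difference with its SE (x axis) of each of the 33 measured genes (rows, grouped by role) in 5 comparisons over 8 arrays, with genes at an adjusted p under 0.05 as filled red points and the rest as open points. The called genes are Ch25h in EAE minus naive, and Mvd, Npc2, Apoe and Ch25h in chronic EAE minus EAE.

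Sensing genes with a difference of 0.5 or more in chronic EAE minus naive were Srebf2 at -0.66 ± 0.26 and Insig1 at -0.87 ± 0.18. Insig1 stood at -1.09 and -1.31 naive and -2.19 and -1.96 chronic, its 2 lowest arrays. The other probe of Srebf2 had the opposite sign. Scap, the sterol-sensing escort, had a range of 0.36 over the 8 arrays and Insig2, the second INSIG gene, a range of 0.26. Nr1h2, the liver X receptor beta, stood at 2.94 and 2.55 naive and 1.99 and 2.14 chronic, a difference of -0.68 ± 0.20.

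Among the transport and carriage genes 0 were called in chronic EAE minus naive. Npc2 had -1.09 ± 0.25, from 2.55 and 2.15 naive to 1.06 and 1.45, with an adjusted p of 0.0779. Soat1, the enzyme that esterifies cholesterol for storage, had -0.53 ± 0.22 with an adjusted p of 0.163. Apoe had -0.99 ± 0.31, from 7.05 and 6.53 to 5.45 and 6.15, with an adjusted p of 0.11. With the opposite sign Ch25h had 1.82 ± 0.32, with an adjusted p of 0.0653, so that its chronic arrays stayed above the naive ones. Stard4 and Npc1, which move sterol between membranes and out of lysosomes, differed by less than 0.5, although the other 2 probes of Npc1, well above background on 7 and 5 arrays, had the opposite sign. The 3 other probes of Soat1 had 0.00, -0.98 and 0.65. Abca1 was higher on the chronic than on the naive array in both genotypes, with a fitted difference of 0.44 (adjusted p 0.135). Differences below 0.5 were also those of Abcg1 and Cyp46a1, the neuronal cholesterol 24-hydroxylase. Cyp46a1 was lowest on the Cx47-deficient chronic array at -1.12 and next lowest on the WT iguratimod array at -1, and lay between -0.56 and -0.18 on the other 6.

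The 2 genotypes contributed unequally to the chronic difference. In WT 11 members were at 2-fold or more against naive, 10 of them lower, where 26.2% of all genes were. In Cx47-deficient mice 2 members were, Mvd lower and Ch25h higher, where 10.8% of all genes were. The 10 lower in WT were Mvd, Idi1, Msmo1, Cyp51, Pmvk, Fdps and Fdft1 of the enzymes, with Insig1, Npc2 and Apoe. The median of the enzymes was -0.86 in WT and -0.40 in Cx47-deficient mice, and that of the top quartile of genes -0.40 and -0.09. Whether the genotypes differed in this was not tested. After quantile normalization 5 WT members were at 2-fold or more, and after median centring 21 were.

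Against EAE rather than naive, 4 members were called in the chronic phase, all lower, which is near the 14.5% of all genes called in this comparison. Mvd fell by 0.96 ± 0.19 (adjusted p 0.0432) and Npc2 by 1.66 ± 0.25 (adjusted p 0.0381). Apoe fell by 1.46 ± 0.31 (adjusted p 0.0454) and Ch25h by 1.90 ± 0.32 (adjusted p 0.0387), all by limma. In each of these 4 genes both chronic arrays lay below both EAE arrays. Markers of myeloid cells were called lower in the same comparison, among them Lyz2 at -2.90 ± 0.47, Ms4a7 at -2.61 ± 0.43 and Fcgr1 at -2.31 ± 0.32. Ly6g was called lower too, but at -6.09 and -6.11 it was not well above background on the chronic arrays. Its difference therefore has no measured size. Itgam, a monocyte and macrophage marker, was called higher. The part of these markers in the 4 calls was not tested. Without the WT or the Cx47-deficient naive array the count was 3, and without any 1 of the other 6 arrays the count was 0.

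The other members showed the same direction in most cases. Of the 17 enzymes 16 were lower, with a median of -0.51 beside 0.02 over all genes and -0.23 over the top quartile, and 13 were lower in both genotypes. Fitted differences of 0.5 or more were those of Pmvk at -0.83 ± 0.24, Idi1 at -0.76 ± 0.25, Mvk at -0.69 ± 0.20, Fdft1 at -0.69 ± 0.22 and Cyp51 at -0.69 ± 0.18. Fdps had -0.67 ± 0.24, Msmo1 -0.54 ± 0.27 and Nsdhl -0.51 ± 0.20, whereas the chosen probe of Lss had 0.63 ± 0.15. With the mean of a gene's probes the values were 0.09 for Msmo1, 0.72 for Nsdhl and -0.03 for Lss, each the other sign. Outside synthesis, Srebf2 had -0.80 ± 0.26, Soat1 -0.74 ± 0.22, Nr1h2 -0.73 ± 0.20, Srebf1 -0.67 ± 0.23 and Insig1 -0.59 ± 0.18. None of these passed the test.

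Within WT 7 members were at 2-fold or more between the chronic and the EAE array, all lower, where 30.7% of all genes were. In Cx47-deficient mice 3 were, Npc2, Apoe and Ch25h, where 17.4% of all genes were. The related lists were called in both directions here. Fads1 and Fads2, desaturases of fatty acids, were called lower and Elovl6 higher among 12 genes of fatty acid synthesis. Apod was called lower, and Lpl and Lrp8, a receptor for apolipoprotein E and reelin, higher among 15 genes of lipoprotein uptake and carriage. Cyp27a1 was the 1 of 11 genes of sterol handling called, and was lower.

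The myelin and astrocyte markers were low on the same chronic arrays. The summed level of the 8 myelin genes was 99.6 and 142 there and 190 to 359 on the other 6 arrays. That of the 8 astrocyte genes was 45.4 and 85.8, against 113 to 149, and Gfap and Gja1 were among the genes called lower against EAE. All 8 genes of both lists were lower in the fit against naive and against EAE. Against EAE the monocyte and macrophage markers were lower in 6 of 7, with a median of -2.31 and 4 called lower, while Itgam was called higher. The neutrophil markers were lower in 4 of 4 (median -1.86, 3 called), the T cell markers in 4 of 4 (median -1.52, 0 called) and the endothelial markers in 5 of 5 (median -1.5, 1 called). Against naive these blood-derived and vascular markers went mostly the other way, with 0 called. Higher there were 6 of 7 monocyte and macrophage, 4 of 4 neutrophil, 3 of 4 T cell and 4 of 5 endothelial markers. The 5 neuron genes were 181 and 185 on the chronic arrays, inside their range of 171 to 228 on the other 6. The part of cell makeup in the low enzyme levels was not tested.

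Over the 8 arrays the enzymes kept in step. The mean level of the 17 was 2.33 on the WT and 1.99 on the Cx47-deficient naive array, 2.15 and 1.82 in EAE, 1.90 and 1.94 with iguratimod, and 1.54 and 1.60 in the chronic phase. As a description, the correlation of an enzyme with the mean of the other enzymes had a median of 0.90 over 8 arrays and 0.89 over the 6 arrays of 1 slide, while the median over all genes tested was 0.00 and 0.04. Fdft1 and Msmo1 had 0.97, Hmgcs1 and Cyp51 0.96, whereas Ebp had 0.40 and Lss -0.64. Among the members that are not enzymes, Insig1 came nearest, at 0.94, ahead of Srebf2 at 0.88, and Abca1 had -0.48. Arrays share slide, signal range and cell makeup, so these values say nothing on shared control.

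Some other gene groups followed the same course and others did not. The correlation with the mean of the enzymes over 8 arrays was 0.95 for the mean of the 8 myelin genes, 0.93 for that of the 5 neuron genes and 0.89 for that of the 12 genes of fatty acid synthesis. Over the 6 arrays of 1 slide it was 0.89, 0.86 and 0.85. For all 6476 genes of the top quartile of level it was 0.85 over 8 arrays and 0.55 over the 6, and for the 8 astrocyte genes 0.73 and -0.12. It was 0.60 and 0.39 for the oligodendrocyte precursor genes and 0.43 and -0.05 for the ependymal genes. For the other 8 lists, of lipid carriage, sterol handling, microglia, monocytes, T cells, neutrophils, endothelium and choroid plexus, it lay between -0.18 and 0.32 over 8 arrays and between -0.60 and -0.07 over the 6. In the fit the neuron genes had a median of -0.06 in chronic EAE minus naive and 0.11 in chronic EAE minus EAE, where the enzymes had -0.61 and -0.51. The mean of the top quartile ran from 2.90 to 3.26, a smaller span than that of the enzymes. The enzymes stood 0.92 and 1.1 below it on the WT and Cx47-deficient naive arrays, 1.08 and 1.29 in EAE, 1.35 and 1.25 with iguratimod, and 1.36 and 1.41 in the chronic phase, so that the WT iguratimod array had nearly the gap of the chronic arrays.

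**Figure D4:**
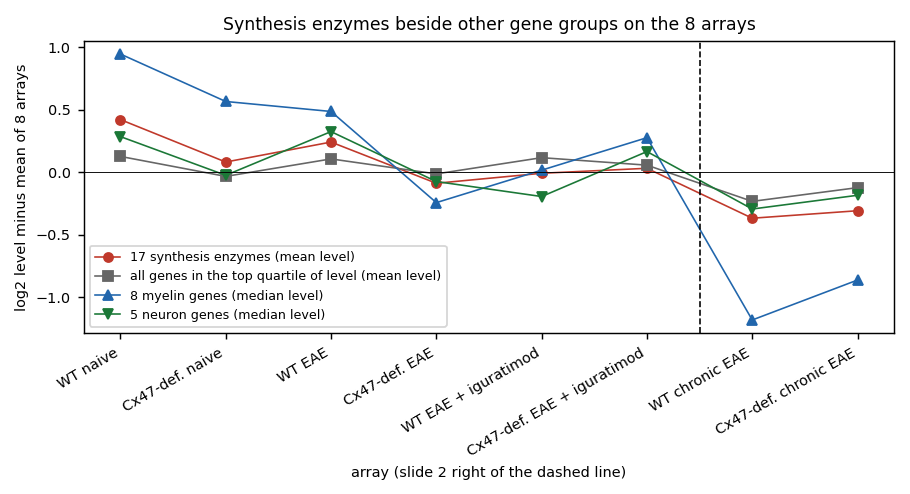
Mean level of the 17 synthesis enzymes (red circles) and of the 6476 genes in the top quartile of level (grey squares), and median level of 8 myelin genes (blue triangles) and 5 neuron genes (green inverted triangles), on each of 8 arrays (x axis, 1 array per group), as log2 level minus the mean over the arrays (y axis). The enzymes, the top quartile and the myelin genes are lowest on the 2 chronic arrays, right of the dashed line, and the enzyme mean is 2.33 on the WT naive and 1.54 on the WT chronic array.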

How the data were processed

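RNA labelled with Cy3 was read on 8 single-colour Agilent arrays, 1 for each of 2 genotypes in 4 states. The scanner files, as deposited, give an intensity for each spot from Agilent Feature Extraction, version 10.7.1.1 per the file headers and 9.5.1.1 per the submitters' processing notes, and this discrepancy remains. Arrays had 62976 spots, 59305 of them not controls, and probe positions on mm9, per the file headers. The intensity used here was the processed signal, background-subtracted by the scanner software per the file headers. Flags per spot were used as deposited. The authors' table of processed intensity values served as an alternative.

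The log2 of the processed signal minus the array's 75th percentile was taken, outlier spots were left out, spots of a probe were averaged, and the probe with the highest mean stood for its gene. Genes whose probe exceeded background clearly on 2 or more of the 8 arrays were fitted by lmFit and eBayes of limma 3.58.1 under R 4.3.3 (3 residual degrees of freedom), which assumes the same genotype difference in every state. The fit was run on simulated data with independent noise and known shifts added to the EAE arrays. Those data held no effect of slide, signal level or genotype, so the run checks the code only. Differences between 2 arrays have no replicate and were not tested; dim values were raised to the lowest signal well above background on that array. The number of arrays limits the precision.

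The members, lists and tests were chosen with earlier results of these data known. Genes were named by a rule: members by role, with a fitted difference where it was 0.5 or more or called, up to 3 genes of each related list with the largest difference in EAE minus naive, and the first 2 of each marker list; some genes are not reported here. Genes of those lists named because they were called against EAE in the chronic phase were chosen after their values were seen. The same holds for Nefl, Tubb3 and Syt1 and for the levels of further members. Alternatives were normexp background correction (offset 50), quantile normalization, median centring, the authors' values, no filter or a stricter one, the mean of a gene's probes, slide 1 alone and leaving out each array.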

Additional observations from a re-analysis of the deposited data

How the results depend on the processing

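Over all alternatives the results for Cx47-deficient minus WT and for iguratimod minus EAE kept their counts of calls at 0, with an enzyme median between -0.34 and -0.09 and between -0.20 and 0.06. In EAE minus naive, members called were 0 with no filter, on slide 1 alone, from the authors' values and after quantile normalization. All genes called were 200 after normexp, 340 after median centring, 38 with the authors' values, 15 with no filter, 199 when required well above background on all arrays and 0 on slide 1. The enzyme median was -0.15 after normexp and -0.16 after median centring. In chronic EAE minus naive, members called were 9 after normexp, 2 after median centring and 5 when required on all arrays. All genes called were 3892, 1041 and 1811 there, 25 with no filter, 12 from the authors' values and 19 after quantile normalization, and the enzyme median was -0.97 after median centring. In chronic EAE minus EAE, members called were 15 after normexp, 11 after median centring, 0 with no filter, 10 when required on all arrays and 7 with the mean of probes. All genes called were 7567 after normexp, 6469 after median centring and 849 with no filter, and the enzyme median was -0.91 after median centring. With the mean of probes the sign turned for Hmgcs1 in chronic EAE minus naive (0.14) and for Lss (-0.03), Msmo1 (0.09) and Nsdhl (0.72) in chronic EAE minus EAE. All other probes of Hmgcs1, Lss and Nsdhl, and 1 of the 2 others of Msmo1, had the opposite sign.

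Leaving out each array gave 0 members called and 0 to 11 genes in EAE minus naive, with an enzyme median from -0.32 to -0.02. It gave 0 members and 1 to 3 genes in chronic EAE minus naive, and 0 to 3 members and 1 to 2442 genes in chronic EAE minus EAE. Of members at 2-fold or more, naive genotypes had 0 after normexp and with the authors' values. Chronic against naive in WT had 5 after quantile normalization, 21 after median centring and 6 with the authors' values, and chronic against EAE in WT had 21 after median centring. With the mean of probes EAE against naive in WT had 2 and chronic against naive in Cx47-deficient mice had 4. The causes were not tested, apart from fewer arrays in the fits that leave some out. No paired analysis was possible because each group holds 1 array and so no replicate numbers to pair, beyond the fit itself, which already matches arrays by state and by genotype. A state and its slide cannot be told apart for the chronic arrays, and signals near background limit the size of the Ch25h difference.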
